A study of Mus musculus with 18 samples.

Results

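The row >3 cells of the small intestine (SI) were set against the centre cells of the same organ. The rule took the raw counts of the libraries sorted for low GFP and for high GFP from SI crypts, 3 libraries a side, with the replicate number as a pair, so that 6 of the 18 libraries of the series carry this comparison. All of them came from untreated C57BL/6 mice of the genotype Lgr5_eGFP_Iris_creERT2, in which the Lgr5 locus drives GFP and a tamoxifen-dependent Cre, and which the labels give as 8 to 20 weeks old. The paper's methods give a wider age range for the RNA-seq mice. For its mice in general they also name a mixed background. Live EPCAM+ crypt cells were sorted by GFP, and high, medium and low GFP were taken by the study as Lgr5+ cells of the crypt centre, of its border and of the rows above (row >3). A position is therefore read from a GFP level and was not seen under a microscope for the cells sequenced. GFP from this allele is patchy between crypts, and GFP protein can outlast Lgr5 RNA. The SI segment is not stated for the RNA-seq, though the methods for stained isolated crypts name the distal ileum. The methods call the libraries of a group biological replicates, and the legends for the RNA-seq count mice, with numbers that differ between legends. None says which mouse gave which library or whether equal replicate numbers share a mouse.

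The epithelium of the SI is renewed from stem cells at the base of the crypt, which carry Lgr5, a receptor for R-spondins, and sit between Paneth cells under strong Wnt signalling. Cells that are displaced upwards meet less Wnt and more BMP, go through some rounds of division, and take either the absorptive fate, which needs Notch signalling, or a secretory fate that starts with the factor Atoh1 and ends in goblet, enteroendocrine, Paneth or, by a separate route, tuft cells. Enterocytes then build a brush border with enzymes and transporters for sugar, peptides and fat.

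Before any result, the libraries of SI replicate 3 have to be set apart. Levels are in CPM (counts per 1e6 of the scaled library total). The summed level of the 25 tested genes of colonic epithelium was 90.2 and 90.5 in centre replicates 1 and 2 but 611 in replicate 3. In row >3 it was 318 and 233 in replicates 1 and 2 but 3919 in replicate 3. Car1, a carbonic anhydrase of the colon, had 0, 0.313 and 82.1 CPM in the 3 centre libraries and 2.89, 10.4 and 1939 CPM in the 3 row >3 libraries. Hoxa10, a homeobox gene of the posterior gut, had at most 0.0786 CPM in replicates 1 and 2 and 10.6 and 12.3 CPM in centre and row >3 of replicate 3. In these libraries the MHC class II genes summed to 145 and 148 CPM, against 505 to 1279 CPM in the other 4, and 5 transcripts (mt-Rnr2, mt-Rnr1, Gm23935, Gm26917 and Gm42418) took 40.5% and 41.1% of all counts, against 29.2% to 30.9%. Replicate 2 carried 1019 and 1162 counts of the Y-linked Ddx3y and replicates 1 and 3 none. The part of these differences between replicates in the results was not tested, and the counts of the lists are therefore given with and without SI replicate 3. The 6 libraries held 15757652 to 31940965 counts.

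Row >3 cells differed widely from centre cells. Of 26717 genes tested with edgeR's quasi-likelihood test and Benjamini-Hochberg adjustment, 6103 (22.8%) passed an adjusted p of 0.05, 3309 of them higher (12.4%) and 2794 lower (10.5%) in row >3. Among the called genes, 3080 changed by at least 1 on the log2 scale, 329 rose by at least 3 and 169 fell by at least 3. All row >3 libraries lay above all centre libraries for 12.8% of the genes tested and below them for 12.3%. Without the replicate block, 1964 genes were higher and 1554 lower. Scaling by library size alone moved the median log2 fold change of all genes by -0.20 and turned the split into 2443 higher and 3931 lower, and changes are to be read relative to that shift. As these are bulk samples, fewer cells of a type and less RNA per cell cannot be told apart.

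**Figure D1:**
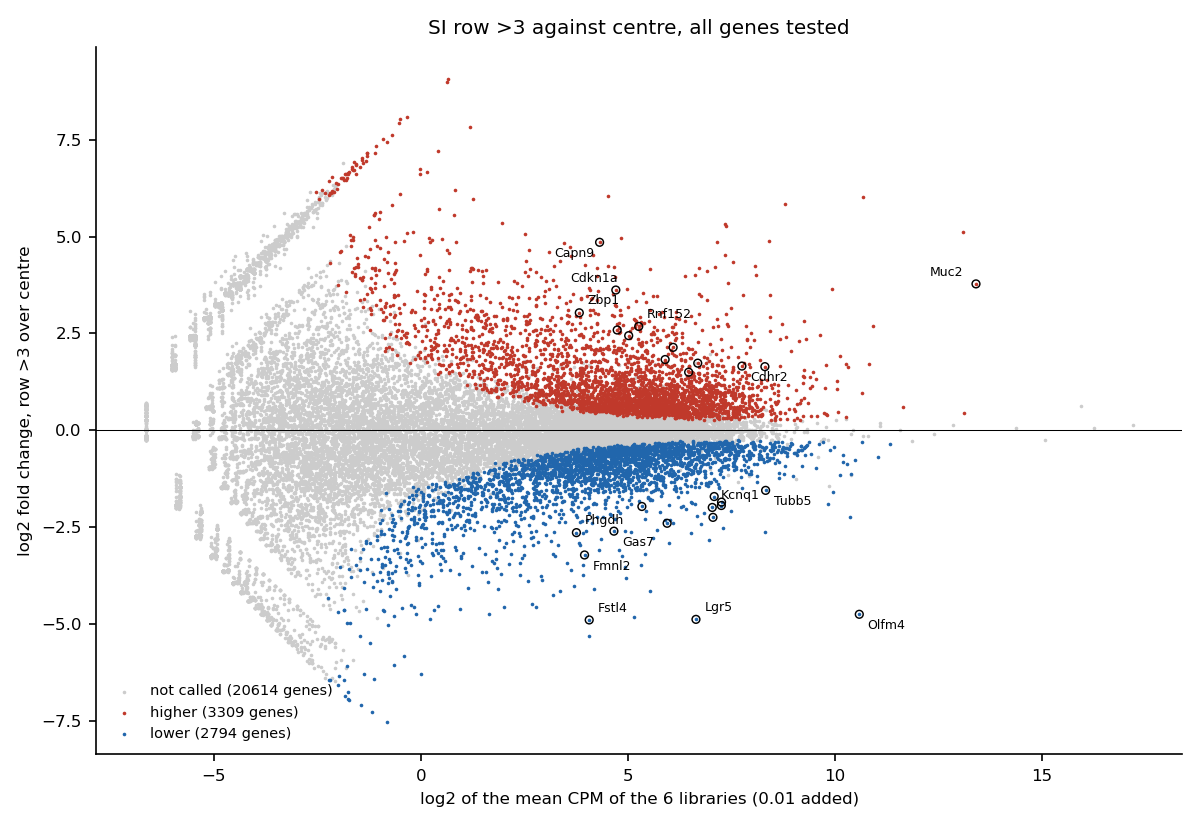
Log2 fold change of row >3 over centre (vertical) against the log2 mean CPM of the 6 libraries (horizontal) for the 26717 genes tested, red where higher, blue where lower and grey where not called. Circles mark the genes with the smallest adjusted p in each direction and Lgr5, Olfm4 and Muc2. Lgr5 and Olfm4 lie near -5, and Muc2 is among the most abundant transcripts that rose.

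The sort set the difference in Lgr5, since GFP is made from that locus, and its values are a check of the labels. Lgr5 (ENSMUSG00000020140, chromosome 10, 115450311 to 115587780 on mm10) had 255, 203 and 119.8 CPM in centre replicates 1, 2 and 3 and 8.24, 13.5 and 1.40 CPM in row >3, a fall of 4.88 on the log2 scale (SE 0.61, adjusted p = 4.18e-04). The border libraries lay between, at 75.7, 98.1 and 7.84 CPM. In replicate 3 the border value was thus already below that of row >3 in replicates 1 and 2. Row >3 libraries still held Lgr5 RNA, and their level did not overlap with that of any centre library.

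With Lgr5 went most of the transcripts that define the crypt base. Of 26 crypt base stem cell genes tested, 23 fell and none rose, with a median log2 fold change of -2.13 beside 0 over all genes (-2.14 without SI replicate 3, when 24 fell). Lgr5, whose fall the sort set, is counted among the 26 and among the 23, and no count or median was made without it. The 3 that did not pass were Fstl1, Cd24a and Prom1. Olfm4, a secreted glycoprotein of SI crypt base cells, had 3995, 3821 and 856 CPM in the centre and 181, 397 and 9.63 CPM in row >3, a fall of 4.75 (SE 0.71, adjusted p = 0.0013, and 0.085 without the replicate block). Each row >3 library was below every centre library. Ascl2, the transcription factor that keeps the stem cell state, had 18.4, 13.04 and 10.4 CPM against 1.23, 1.56 and 0.0776 CPM, a fall of 3.77 (SE 0.34, adjusted p = 2.95e-07). Smoc2, a matrix protein, fell by 2.84 (SE 0.41, adjusted p = 7.19e-04), from 270.1, 257 and 105.6 CPM to 44.1, 59.8 and 6.52 CPM, and did not pass without the replicate block (adjusted p = 0.0625). The water channel Aqp4, the potassium channel Kcnq1, the kinase Cdk6 and the Myc target Cdca7 fell by 2.57, 1.99, 1.95 and 2.25 on the log2 scale. The smallest changes among the members called were in Bmi1 and Hopx, both long discussed as marks of reserve stem cells, at -0.59 and -0.64.

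Most Wnt target and feedback genes followed in the same direction. Of 24 tested, 15 fell (62.5%, beside 10.5% of all genes) and 3 rose (12.5%, beside 12.4% of all genes). The median was -1.33, and -1.18 without SI replicate 3, with 13 lower and 3 higher. Axin2, a negative regulator that Wnt itself induces, had 621, 656 and 331 CPM in the centre and 103.6, 151 and 40.1 CPM in row >3 (log2 fold change -2.62, SE 0.29, adjusted p = 8.52e-05). Rnf43, a ligase that removes Wnt receptors, had 352, 314 and 215 CPM against 65.2, 80.5 and 60.1 CPM, and fell by 2.09. Apcdd1, an inhibitor of Wnt receptors, fell by 4.11, from 10.6, 8.62 and 1.38 CPM to 0.432, 0.649 and 0.155 CPM. Ephb3, the receptor that holds cells low in the crypt, fell by 2.31, from 98.5 to 114 CPM in the centre libraries to 19.2 to 25.3 CPM in row >3. Its ligand Efnb2 rose by 2.65 (SE 0.24, adjusted p = 8.34e-07), from 9.04, 9.16 and 25.5 CPM to 89.1, 50.7 and 112.8 CPM, and Efnb1 and Tcf7l2 were the other 2 that rose, by 0.85 and 0.59. The libraries of the groups did not overlap for Ephb3 or for Efnb2.

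Among Notch genes the receptors Notch1 and Notch2 fell and the ligands Dll1 and Dll4 rose. Of 14 tested, 6 fell (42.9%, beside 10.5% of all genes) and 3 rose (21.4%, beside 12.4% of all genes). The median was -0.77, and -0.57 without SI replicate 3, with 6 lower and 3 higher. Notch1 had 183, 155 and 159 CPM in the centre and 33.9, 42.1 and 33.6 CPM in row >3 (log2 fold change -2.21, SE 0.23, adjusted p = 8.39e-06), and Notch2 fell by 1.71. Hes1, the repressor that Notch induces, had 78.8, 64.4 and 54.0 CPM against 24.1, 22.8 and 29.3 CPM, a fall of 1.39. The ligand Dll1 rose by 1.70, from 20.9, 33.5 and 30.9 CPM to 105.8, 117 and 56.8 CPM, and Dll4 by 1.24, from 9.94, 11.8 and 28.2 CPM to 35.8, 33.4 and 38.5 CPM. Neither ligand's groups overlapped. The ligand Jag1 did not pass (log2 fold change -0.09).

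Several BMP target genes rose, and no receptor of the list passed the test. Of 17 genes tested, 6 rose (35.3%, beside 12.4% of all genes) and 2 fell (11.8%, beside 10.5% of all genes). The median was 0.32, with 8 and 2 without SI replicate 3, and 3 and 1 without the replicate block. Id3, an inhibitor of differentiation factors that BMP induces, had 6.41, 3.84 and 6.15 CPM in the centre and 17.6, 14.3 and 20.1 CPM in row >3, a rise of 1.67 (SE 0.27, adjusted p = 1.22e-04). Id4 rose by 3.19, from 2.16, 1.30 and 2.11 CPM to 23.1, 27.0 and 2.79 CPM, with replicate 3 close to the centre. Smad7, the feedback inhibitor, rose by 1.27 (adjusted p = 6.27e-05, and 0.0507 without the replicate block). Smad4, the shared mediator, fell by 0.58, from 102 to 118 CPM in the centre libraries to 72.2 to 75.5 CPM in row >3.

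Nearly all genes of the S phase and mitosis lists were lower in row >3 and still expressed. In the S phase list 42 of 43 fell and none rose (median -1.24, the same without SI replicate 3, with 41 lower), and Ccne1 was the gene that did not pass. Pole, the catalytic subunit of a replicative polymerase, had 129, 119.6 and 92.4 CPM in the centre and 35.5, 51.9 and 20.6 CPM in row >3 (log2 fold change -1.74, SE 0.17, adjusted p = 7.73e-07). Pola1, of the polymerase that starts new strands, had 153, 135 and 101 CPM against 37.4, 62.9 and 31.4 CPM, a fall of 1.60. The helicase subunit Mcm7 fell by 1.40, Rrm1 of ribonucleotide reductase by 1.28 and the sliding clamp Pcna by 1.004. Mcm7 overlaps Cops6 on the opposite strand, which reached 31.9 CPM, and no source states which strand was counted. Kcnq1, Cdk4, Rb1, Ccnd1, Vil1, Dll4, Ciita, Rnf152, Cdca7l and Dll1, among others, also overlap a gene on the opposite strand. Reads of either may be counted for them. In the mitosis list 35 of 36 fell and none rose (median -0.91, 33 without SI replicate 3 and 17 without the replicate block), all but Pttg1. Mki67, which coats mitotic chromosomes, had 1462, 1641 and 1298 CPM in the centre and 843, 1285 and 522 CPM in row >3 (log2 fold change -0.81, SE 0.12, adjusted p = 7.12e-05). Replicate 2 of row >3 nearly reached the lowest centre library, and the row >3 value of replicate 3 was the lowest of all. Kif11, Ect2, Bub1b and Cenpf, of the spindle, of cytokinesis, of its checkpoint and of the kinetochore, fell by 1.21, 1.14, 1.13 and 1.12.

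The genes that gate entry into S phase went both ways. Of 17 G1 cyclins, kinases and inhibitors, 4 rose and 4 fell, 23.5% each, beside 12.4% and 10.5% of all genes. The median was 0.10, and -0.09 when scaled by library size alone. Without SI replicate 3, 6 rose and 3 fell. Cdkn1a, which codes for the inhibitor p21, had 4.05, 3.04 and 5.004 CPM in the centre and 52.3, 31.2 and 61.4 CPM in row >3, a 12.3-fold rise (log2 fold change 3.62, SE 0.27, adjusted p = 5.40e-08). Cdkn2b, the inhibitor p15, rose by 4.53 (adjusted p = 3.60e-04), from 0.668, 2.14 and 1.93 CPM to 55.0, 28.5 and 18.9 CPM. It lies outside the naming rule and was chosen after its values were seen. The retinoblastoma gene Rb1 rose by 1.18, from 22.3, 24.2 and 27.8 CPM to 68.6, 49.9 and 48.2 CPM. On the other side Cdk4, which with Cdk6 phosphorylates its product, fell by 1.43, from 108.1, 90.3 and 63.6 CPM to 31.4, 39.6 and 26.9 CPM, and Ccnd1 by 0.48 (adjusted p = 0.0157, 0.197 without SI replicate 3 and 0.469 without the replicate block). The groups did not overlap for Cdkn1a, Cdk4 and Rb1. Of 30 ribosome biogenesis genes, 23 fell and none rose (median -0.79, 20 lower and 1 higher without SI replicate 3), among them the nucleolar proteins Npm1 and Ncl, by 1.24 and 1.16. Myc, which in general promotes growth and ribosome biogenesis, had 80.8, 65.7 and 79.8 CPM in the centre and 24.7, 31.6 and 24.0 CPM in row >3. It fell by 1.51 (SE 0.17, adjusted p = 2.49e-06), and its part in the fall of the list was not tested.

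**Figure D2:**
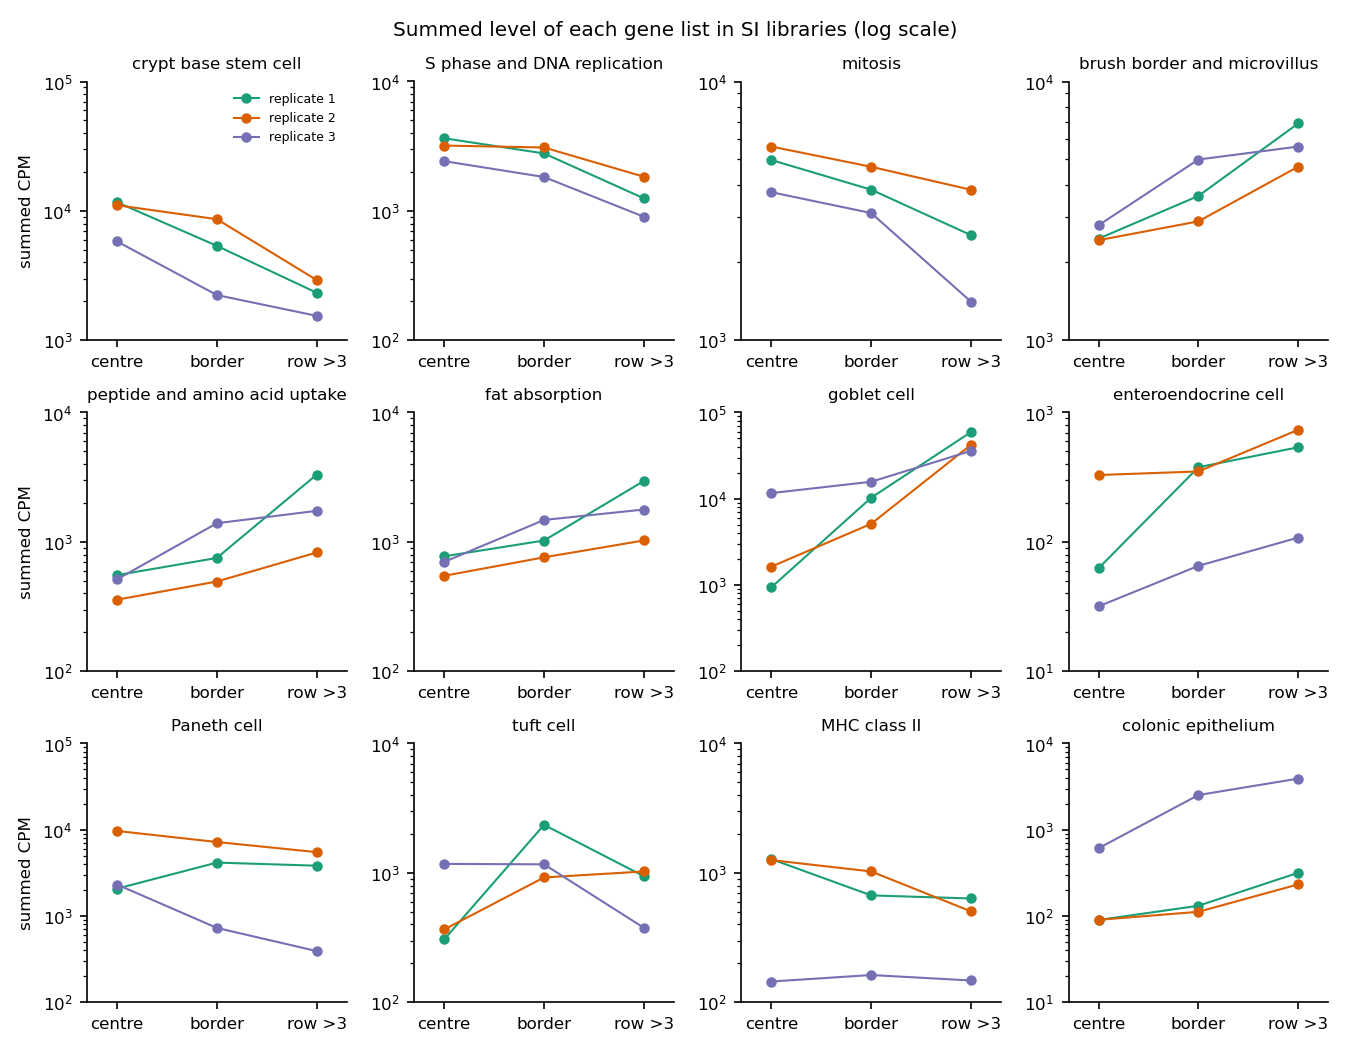
Summed CPM of 12 gene lists (vertical, log scale) in the SI centre, border and row >3 libraries, with a line for each replicate number. The stem cell and S phase lists fall in all 3 replicates, while the MHC class II and colonic lists separate replicate 3 from replicates 1 and 2 in all 3 groups and the tuft list does so in centre and row >3.

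The genes with the smallest adjusted p of each direction came from several functions. On the lower side stood Fstl4, a secreted follistatin-like protein, with 53.1, 37.3 and 6.93 CPM in the centre and 1.23, 2.02 and 0 CPM in row >3 (log2 fold change -4.90, SE 0.36). Tubb5, a beta-tubulin, had 581, 559 and 294 CPM against 168, 229 and 98.1 CPM (-1.55, SE 0.10), and Stmn1, which takes microtubules apart, fell by 1.86, all 3 genes with an adjusted p of 2.18e-08. Phgdh, the first enzyme of serine synthesis, had 29.99, 23.8 and 16.1 CPM against 4.38, 4.01 and 2.87 CPM and fell by 2.64. The formin Fmnl2 fell by 3.22, Gas7 by 2.61, the transcription cofactor Dach1 by 2.40, Cdca7l by 1.97, Zbtb38 by 1.94 and the histone chaperone Nap1l1 by 1.71. On the higher side Capn9, a calpain of the digestive tract, had 0.432, 0.983 and 2.66 CPM in the centre and 48.1, 45.1 and 22.3 CPM in row >3 (log2 fold change 4.85, SE 0.36, adjusted p = 6.52e-08). Rnf152, a lysosomal ubiquitin ligase, rose by 2.68, from 9.51, 6.52 and 14.5 CPM to 58.0, 37.7 and 104.2 CPM, and the nucleic acid sensor Zbp1 by 3.03, from 4.83, 3.35 and 1.102 CPM to 38.8, 23.8 and 13.2 CPM. Sdcbp2, Dock8, Slc44a4, Slc35c1 (the carrier of GDP-fucose into the Golgi) and Xpnpep1 rose by 2.59, 2.44, 2.14, 1.73 and 1.498, of which Slc44a4 did not pass without the replicate block (adjusted p = 0.0554). The libraries of none of these genes overlapped, which the rule required.

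B3gnt3, Alpi and Treh, which rose, and Pola1 and Nop58, which fell, are shown with the stretch before their start, since their RefSeq promoters (build GRCm38.p6, 250 bases before to 50 after the start) hold a short match to a factor of this tissue or of the cell cycle. Those of Sis and Fabp2 hold one for CDX. Of 151 genes named for this comparison, 114 matched a promoter by symbol. The HNF4 letters CAAAGTCCA, on either strand, were found in 4 of them (3.51%, against 0.555% of all 27025 genes), the E2F letters TTTCCCGC or TTTGGCGC in 9 (7.89% against 1.80%), the TCF/LEF letters ATCAAAG in 7 (6.14% against 4.29%) and the CDX letters TTTATNG in 9 (7.89% against 12.5%). No pair of these motifs shares its whole run of letters with another, but HNF4 and TCF/LEF both hold CAAAG. The matches were not split by direction: HNF4 was also found in Wnt3, which fell, and E2F in B3gnt3, Cox5a and Slc35c1, which rose. A match is a run of letters and was not tested for binding. Each line gives 100 bases on the strand of the gene, with the match in capitals.
Alpi, HNF4, chr1:87101607-87101706, minus strand: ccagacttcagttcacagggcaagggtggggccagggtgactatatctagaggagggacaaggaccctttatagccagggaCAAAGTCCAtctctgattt
B3gnt3, HNF4, chr8:71701906-71702005, minus strand: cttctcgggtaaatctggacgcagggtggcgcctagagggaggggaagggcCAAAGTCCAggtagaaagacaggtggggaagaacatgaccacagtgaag
Treh, HNF4, chr9:44673111-44673210, plus strand: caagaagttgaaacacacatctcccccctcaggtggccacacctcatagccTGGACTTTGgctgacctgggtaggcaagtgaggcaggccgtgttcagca
Sis, CDX, chr3:72967869-72967968, minus strand: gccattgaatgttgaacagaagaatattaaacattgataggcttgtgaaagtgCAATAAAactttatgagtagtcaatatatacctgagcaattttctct
Fabp2, CDX, chr3:122894954-122895053, plus strand: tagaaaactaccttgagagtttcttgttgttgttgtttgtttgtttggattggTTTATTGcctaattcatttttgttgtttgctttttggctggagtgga
Pola1, E2F, chrX:93632246-93632345, minus strand: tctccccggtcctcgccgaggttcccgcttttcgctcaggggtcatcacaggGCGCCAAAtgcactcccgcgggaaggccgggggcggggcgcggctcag
Nop58, E2F, chr1:59684846-59684945, plus strand: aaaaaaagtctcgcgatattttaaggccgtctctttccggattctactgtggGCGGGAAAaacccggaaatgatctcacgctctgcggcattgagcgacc

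Among the factors that steer absorptive cells more rose than fell, with a small median change. Of 27 absorptive transcription factors, 16 rose (59.3%, beside 12.4% of all genes) and 3 fell (11.1%, beside 10.5% of all genes). The median was 0.56, and 0.57 without SI replicate 3, with 14 and 2. Without the replicate block 10 rose and 1 fell, and with library size only 11 rose and 3 fell (median 0.38). Hnf4a, a nuclear receptor of enterocytes, had 548, 498 and 401 CPM in the centre and 660.0, 605 and 528 CPM in row >3, a rise of 0.31 (SE 0.09, adjusted p = 0.0104, 0.159 without the replicate block) with groups that overlapped. Scaled by library size alone, it did not pass (log2 fold change 0.12, adjusted p = 0.467). Cdx2, the homeobox factor of the whole intestine, had 90.0, 85.2 and 156 CPM against 98.5, 85.4 and 200.1 CPM (log2 fold change 0.17, adjusted p = 0.326). Klf4, a factor of post-mitotic epithelium, had 30.9, 41.4 and 88.1 CPM against 232, 202 and 319.8 CPM and rose 5.12-fold (log2 fold change 2.36, SE 0.21, adjusted p = 1.57e-06). Maf rose by 2.82, from 10.9, 4.69 and 21.5 CPM to 130.2, 32.6 and 75.5 CPM, and Isx, which limits vitamin A uptake, by 1.18. Vdr, the vitamin D receptor, fell by 0.71, from 365 to 368 CPM in the centre libraries to 198 to 269 CPM.

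Brush border genes rose as a block. Of 21 tested, 19 rose and none fell (median 1.16, and 1.18 without SI replicate 3, with 18 higher and 1 lower). Cdhr2, a cadherin that links microvilli by their tips, had 81.2, 70.2 and 168 CPM in the centre and 372, 194 and 412 CPM in row >3 (log2 fold change 1.66, SE 0.13, adjusted p = 9.66e-08). Slc9a3, the sodium-proton exchanger of the apical membrane, rose by 3.85, from 1.26, 0.402 and 1.51 CPM to 25.6, 3.93 and 15.6 CPM, and its scaffold Slc9a3r1 by 1.40. Alpi, intestinal alkaline phosphatase, had 5.23, 1.25 and 4.22 CPM against 39.1, 6.03 and 29.7 CPM, a rise of 2.77 (SE 0.28, adjusted p = 7.51e-07). Krt20, a keratin of differentiated cells, rose 16.2-fold, from 40.5, 22.4 and 37.2 CPM to 727, 449 and 370.4 CPM (log2 fold change 4.01, SE 0.53, adjusted p = 5.69e-04). For all of these the groups did not overlap, and Alpi in row >3 of replicate 2 lay near the centre of replicate 1. Myo7b and Eps8 were the 2 that did not pass.

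Genes for peptide and amino acid uptake showed the same share. Of 21 tested, 19 rose and none fell (median 1.99, the same without SI replicate 3). Cndp2, a cytosolic dipeptidase, had 31.7, 30.1 and 33.4 CPM in the centre and 84.3 to 200 CPM in the row >3 libraries (log2 fold change 1.99, SE 0.23, adjusted p = 9.60e-06). The peptidases Xpnpep2 and Ace rose by 2.17 and 1.73, the last (adjusted p = 0.0535 without the replicate block) with overlapping groups, where row >3 of replicate 2 had 19.5 CPM against 22.7 and 20.2 CPM in centre replicates 1 and 3. The list summed to 554, 358 and 514 CPM in the centre and to 3312, 829 and 1739 CPM in row >3, so that row >3 of replicate 1 stood at the top and that of replicate 2 at the bottom.

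Fat absorption followed, with 16 of 25 higher and none lower (median 1.26, 17 higher and 2 lower, with a median of 1.34, without SI replicate 3). Fabp2, a fatty acid carrier of enterocytes, had 69.7, 17.1 and 83.9 CPM in the centre and 235, 107.0 and 208 CPM in row >3 (log2 fold change 1.86, SE 0.19, adjusted p = 3.17e-06, 0.0852 without the replicate block). Fabp1 had 1.93, 0.760 and 5.65 CPM against 16.3, 8.32 and 13.3 CPM and rose by 2.31, while the border libraries were at 44.0, 11.5 and 30.1 CPM, above row >3 in each replicate. Dgat2, which makes triglyceride, rose by 2.57, the acyltransferase Agpat2 by 2.07 and the cholesterol importer Npc1l1 by 2.48, the last from 7.60 to 17.9 CPM in the centre libraries to 44.5 to 147 CPM, although it did not pass with DESeq2 (adjusted p = 0.0801). Apoa1, an apolipoprotein of chylomicrons, had 98.0, 15.3 and 53.5 CPM against 428, 58.3 and 188 CPM, a rise of 1.96 (adjusted p = 2.10e-04, 0.101 without the replicate block) in groups that overlapped, with replicate 2 low in both.

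Sugar genes rose in part. Of 16 tested, 8 rose, 7 did not pass and 1 fell (6.25%, beside 10.5% of all genes). The median was 0.58, with 9 and 1 without SI replicate 3, and 4 and 1 without the replicate block. Sis, sucrase-isomaltase, rose 11.5-fold, from 19.0, 11.1 and 15.4 CPM to 373, 63.8 and 153 CPM (log2 fold change 3.52, SE 0.50, adjusted p = 3.65e-04), and all row >3 libraries were above all centre libraries. Treh, the trehalase, rose by 1.71 with overlapping groups, from 3.38, 0.625 and 1.84 CPM to 9.497, 2.33 and 7.92 CPM, and overlaps Phldb1 on the opposite strand, which reached 92.9 CPM. Fbp1, of gluconeogenesis, fell by 1.41, from 9, 5.14 and 3.77 CPM to 2.92, 2.33 and 1.48 CPM. Of 20 genes that mark zones along the villus, 14 rose and 1 fell (median 1.56, 10 and 1 with a median of 1.19 without SI replicate 3, 5 and none without the replicate block), among them Ceacam20 by 3.20, Creb3l3 by 1.57 and Ceacam1 by 1.08. Without the replicate block Creb3l3 and Ceacam1 did not pass (adjusted p = 0.102 and 0.0815).

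**Figure D3:**
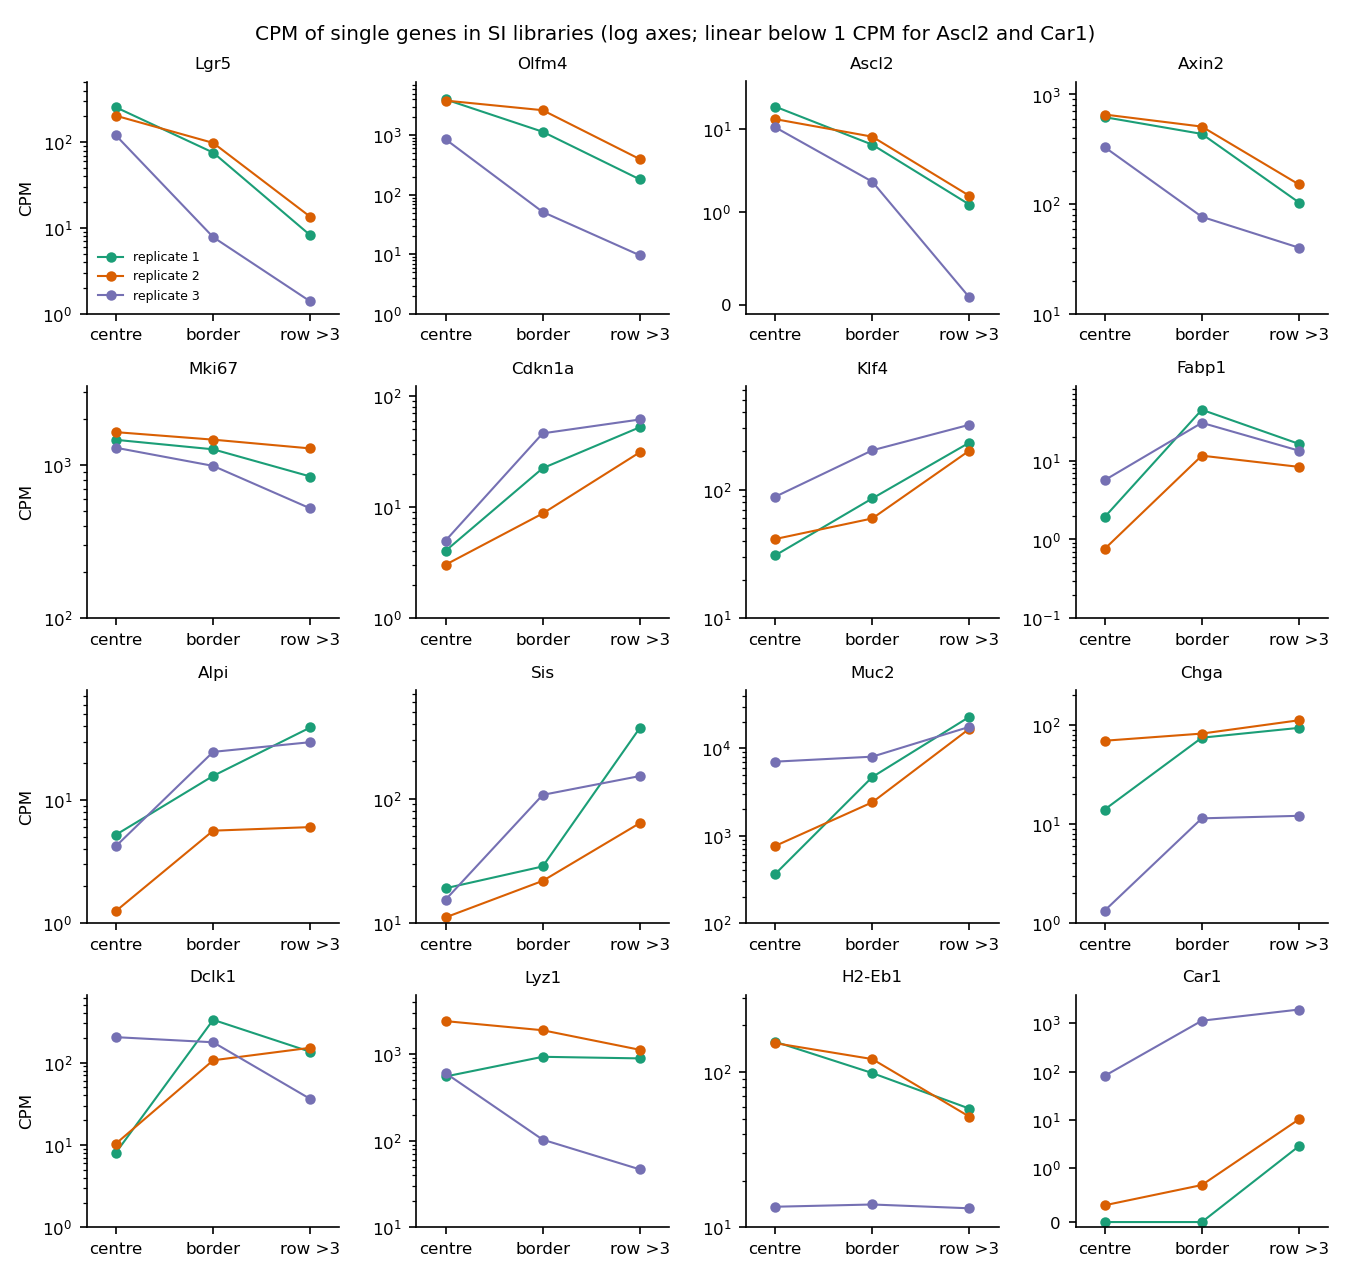
CPM of 16 genes (vertical, log axes) in the SI centre, border and row >3 libraries, with a line for each replicate number. Lgr5, Olfm4, Ascl2 and Axin2 fall and Cdkn1a, Klf4, Alpi and Sis rise in all 3 replicates, while Dclk1 falls and H2-Eb1 stays level in replicate 3.

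Goblet cell transcripts made the largest rise by median. Of 22 tested, 21 rose and 1 fell (median 3.26, 21 and 1 with a median of 4.28 without SI replicate 3). Muc2, the gel-forming mucin, had 362, 760 and 7017 CPM in the centre and 22890, 16730 and 17570 CPM in row >3 (log2 fold change 3.78, SE 0.83, adjusted p = 0.0101, 0.0485 without the replicate block and 4.74e-04 without SI replicate 3). It did not pass without centre replicate 2 (adjusted p = 0.0595), without SI replicate 2 (0.109), with SI libraries only (0.106) or with the SI centre and row >3 libraries alone (0.242). The centre library of replicate 3 was thus far above the other 2, and still below every row >3 library. Atoh1, the factor that starts the secretory fate, had 3.97, 13.1 and 59.5 CPM against 94.1, 97.3 and 133 CPM, a rise of 2.54 (SE 0.52, adjusted p = 0.00665, 0.0803 without the replicate block). The chemokine Ccl9, Tspan13 and Ramp1 rose by 2.25, 1.96 and 2.30, the last with an adjusted p of 0.0635 without the replicate block. Clca1, which processes mucus, had the largest value of the list, from 20.6, 19.3 and 199 CPM to 5078, 3080 and 1377 CPM (log2 fold change 6.02, adjusted p = 0.00398). It was chosen after its values were seen. Clca3a1, a related protein, was the 1 that fell, by 2.09, from 50.3, 48.1 and 32.5 CPM to 13.8, 12.2 and 5.05 CPM.

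Enteroendocrine genes rose too, from low levels. Of 28 tested, 18 rose and none fell (median 2.46, and 2.40 without SI replicate 3, with 19 higher, 8 higher without the replicate block). Sct, which codes for secretin, had 1.1, 3.17 and 15.5 CPM in the centre and 19.4, 22.9 and 47.2 CPM in row >3 (log2 fold change 2.52, SE 0.33, adjusted p = 4.18e-05, 0.0998 without the replicate block). Rfx6, a factor of this lineage, rose by 3.09, from 0.314, 1.38 and 0.0459 CPM to 4.92, 8.70 and 1.09 CPM. Nts, neurotensin, went from 0, 1.43 and 0 CPM to 24.6, 10.7 and 0 CPM, with no count in replicate 3 and an adjusted p of 0.088 without the replicate block. Chga, chromogranin A, had 14.03, 69.6 and 1.33 CPM against 93.9, 112.1 and 12.1 CPM and did not pass (log2 fold change 1.70, SE 0.55, adjusted p = 0.0606), with overlapping groups. Replicate 3 was the lowest for Chga in centre and row >3 alike.

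For tuft cell genes the outcome rested on SI replicate 3. With all 3 pairs, 2 of 26 genes rose and none fell (median 0.93), a share of 7.69% beside 12.4% of all genes. Without SI replicate 3, 24 of 26 rose (median 3.62). Dclk1, the kinase by which tuft cells are stained, had 8.10, 10.4 and 204 CPM in the centre and 135, 151 and 36.2 CPM in row >3 (log2 fold change 1.36, SE 1.31, adjusted p = 0.636). The log2 fold change was 4 without SI replicate 3 (adjusted p = 9.12e-04) and -0.19 without SI replicate 2. It was far higher in row >3 in replicates 1 and 2 and lower in replicate 3. Plcb2 and Alox5ap, of taste-like signalling and leukotriene synthesis, were the 2 called, at 2.55 and 2.99. Plcb2 did not pass without centre replicate 1 or 2 (adjusted p = 0.065 for each), with SI libraries only (0.119) or with the SI centre and row >3 libraries alone (0.175), nor did Alox5ap without centre replicate 1 (0.0897) or with the SI centre and row >3 libraries alone (0.057). The groups of Plcb2 did not overlap. The border libraries had 331, 106.7 and 176 CPM of Dclk1, above their own centre in replicates 1 and 2 and below it in replicate 3.

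Paneth cell products had no common direction. Of 20 tested, 2 rose (Dll4 and Egf, the latter with an adjusted p of 0.318 without the replicate block) and 1 fell (Wnt3), shares of 10% and 5% beside 12.4% and 10.5% of all genes, with a median of -0.61 (-0.0021 without SI replicate 3, with 3 and 1). Lyz1, the lysozyme of Paneth granules, had 549, 2388 and 601 CPM in the centre and 888, 1115 and 46.7 CPM in row >3 (log2 fold change -1.45, SE 0.91, adjusted p = 0.417). With libraries left out, this log2 fold change ran from -2.44 to -0.22, the latter without SI replicate 3. Lyz1 was higher in row >3 in replicate 1 and lower in replicates 2 and 3. The list summed to 2080, 9699 and 2320 CPM in the centre and to 3838, 5512 and 393 CPM in row >3. Paneth RNA was thus present in both groups, most of all in replicate 2. Reads of the defensins, which are close copies of one another, cannot be assigned with certainty. Wnt3, the Wnt ligand that Paneth cells make, fell by 1.14 (adjusted p = 0.0138, 0.356 without the replicate block), from 11.7, 18.6 and 4.55 CPM to 5.64, 9.05 and 0.776 CPM.

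Lipid synthesis rose beside lipid uptake. Of 26 genes of cholesterol and fatty acid synthesis, 22 rose and none fell (median 1.16, 22 with a median of 1.22 without SI replicate 3). Hmgcs1, which makes the precursor of mevalonate, had 70.1, 81.0 and 52.8 CPM in the centre and 241, 263 and 156 CPM in row >3 (log2 fold change 1.69, SE 0.16, adjusted p = 4.20e-07). Msmo1, of a later step, rose by 1.71, and neither gene had overlapping groups. Xenobiotic enzymes numbered 19 higher and 1 lower of 29 (median 1.49, 19 and 3 without SI replicate 3, 4 and none without the replicate block). Cyp4f14 rose by 2.54, from 13.9, 7.91 and 20.0 CPM to 123, 29.2 and 97.5 CPM. Cyp2c55 was at 0.0393, 0.134 and 49.0 CPM against 2.19, 5.496 and 775 CPM, so its level lay almost wholly in replicate 3, with an adjusted p of 0.40 without the replicate block, and it belongs to the colonic list as well.

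MHC class II genes fell in replicates 1 and 2 and stayed low in replicate 3. Of 7 tested, 6 fell and none rose (median -1.06, 6 with a median of -1.18 without SI replicate 3, 3 with DESeq2), but none was called without the replicate block (adjusted p = 0.223 to 0.488 for the 4 named here). H2-Eb1, a chain of the antigen-presenting dimer, had 157, 153.9 and 13.6 CPM in the centre and 58.2, 51.7 and 13.3 CPM in row >3 (log2 fold change -1.20, SE 0.19, adjusted p = 9.67e-05). Ciita, the activator of the whole family, had 82.1, 88.0 and 11.3 CPM against 26.0, 22.9 and 11.1 CPM and fell by 1.43. H2-Aa and H2-DMa fell by 1.19 and 1.06, and H2-DMa overlaps Brd2 on the opposite strand, which reached 220 CPM. The replicates with high levels both fell, and replicate 3 was at the same low level in centre and row >3.

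Respiratory chain genes of the nucleus showed small rises, 11 of 28 with none lower (median 0.28, and 0.09 with 5 higher when scaled by library size alone, 7 without SI replicate 3 and 1 without the replicate block). Cycs, cytochrome c, had 49.0, 53.8 and 66.4 CPM in the centre and 90.7, 83.9 and 131 CPM in row >3 (log2 fold change 0.84, SE 0.12, adjusted p = 2.62e-05), and Cox5a, Sdhb and Uqcrfs1 rose by 0.72, 0.57 and 0.59 (adjusted p = 0.10, 0.0561 and 0.131 without the replicate block). Of the 13 protein genes of the mitochondrial genome, mt-Nd6 alone was called (7.69%, beside 10.5% of all genes called lower), lower by 0.59 (adjusted p = 0.00496, 0.0582 without SI replicate 3 and 0.546 without the replicate block), on the strand opposite to mt-Nd5. Of 17 immediate-early genes, which can also answer to cell isolation, 8 rose (47.1%, beside 12.4% of all genes) and 3 fell (17.6%, beside 10.5%). The median was 0.28, with 8 and 3 without SI replicate 3, and 4 and 1 without the replicate block. Fosb, Jund and Klf6 were higher by 1.06, 0.91 and 0.86, and Myc was lower. Of 13 heat shock genes, 2 rose (15.4%, beside 12.4% of all genes) and 6 fell (46.2%, beside 10.5% of all genes). The median was -0.42, with 2 and 5 without SI replicate 3, and 2 and 2 without the replicate block. Hspa5, the chaperone of the endoplasmic reticulum, had 360.1, 339.8 and 262 CPM against 1153, 1069 and 448 CPM and rose by 1.39 (SE 0.14, adjusted p = 1.44e-06), Bag3 rose by 0.88, and the cytosolic Hsp90ab1 and Hsp90aa1 fell by 0.70 and 0.67, the latter with an adjusted p of 0.137 without the replicate block.

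Lists for other cells were checked beside these. Epithelial genes were high in all 6 libraries, and 8 of 9 rose (median 0.72, 9 without SI replicate 3), with Epcam, on which cells were sorted, at 738 to 823 CPM in the centre and 919 to 1100 CPM in row >3. Krt19 and Vil1, of the cytoskeleton, rose by 1.68 and 1.17, and the junction genes Cldn3 and Tjp1 by 0.92 and 0.72. Of 20 immune cell genes, 2 rose (10%, beside 12.4% of all genes) and 1 fell (5%, beside 10.5%, median 0.48), and the list summed to 61.3, 77.0 and 112.5 CPM in the centre and 214, 195 and 145 CPM in row >3. Without SI replicate 3, 3 rose and 1 fell. Kit, of mast cells and of some secretory cells, made up most of the sum, at 37.5, 60.1 and 91.6 CPM against 135.5, 127 and 135.5 CPM, and rose by 1.097 (adjusted p = 0.0119). It did not pass without row >3 replicate 1 (adjusted p = 0.0692), without row >3 replicate 2 (0.0555), without SI replicate 2 (0.106) or with SI libraries only (0.0836). Itgam had 19.4, 15.1 and 8.04 CPM against 67.6, 57.9 and 7.07 CPM, whereas the T cell gene Cd3e had 0 CPM in all centre libraries and at most 0.266 CPM in row >3. Cd79a, of B cells, was the gene that fell, from 1.1, 0.536 and 0 CPM to 0 in all row >3 libraries. Without the replicate block Itgam and Cd79a did not pass (adjusted p = 0.147 and 0.0907). Of 16 stromal and endothelial genes, 2 rose (Vim and Pdgfrb, 12.5%) and 1 fell (6.25%), beside 12.4% and 10.5% of all genes, and without SI replicate 3 2 rose and none fell. The list summed to 5.74, 7.19 and 14.7 CPM in the centre and 19.8, 15.99 and 17.9 CPM in row >3, so each row >3 library lay above every centre library, with Dcn at 0 in all of them. Vim and Pdgfrb did not pass without the replicate block (adjusted p = 0.0607 and 0.0909) or without centre replicate 1. Of 25 colonic genes, 12 rose and 1 fell (median 2.15, 9 and 1 with a median of 1.59 without SI replicate 3, 2 and 1 without the replicate block), among them Car1 by 4.87 (adjusted p = 0.378 without the replicate block) and Sprr2a3 from at most 0.275 CPM in the centre to 2.92, 0.191 and 7.38 CPM. The summed level of the list was higher in row >3 in each replicate, at far lower levels in replicates 1 and 2. Saa1, a serum amyloid, had 0, 0.0447 and 0 CPM against 6.24, 0.573 and 6.83 CPM. The part of other cells in the lists above was not tested.

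**Figure D4:**
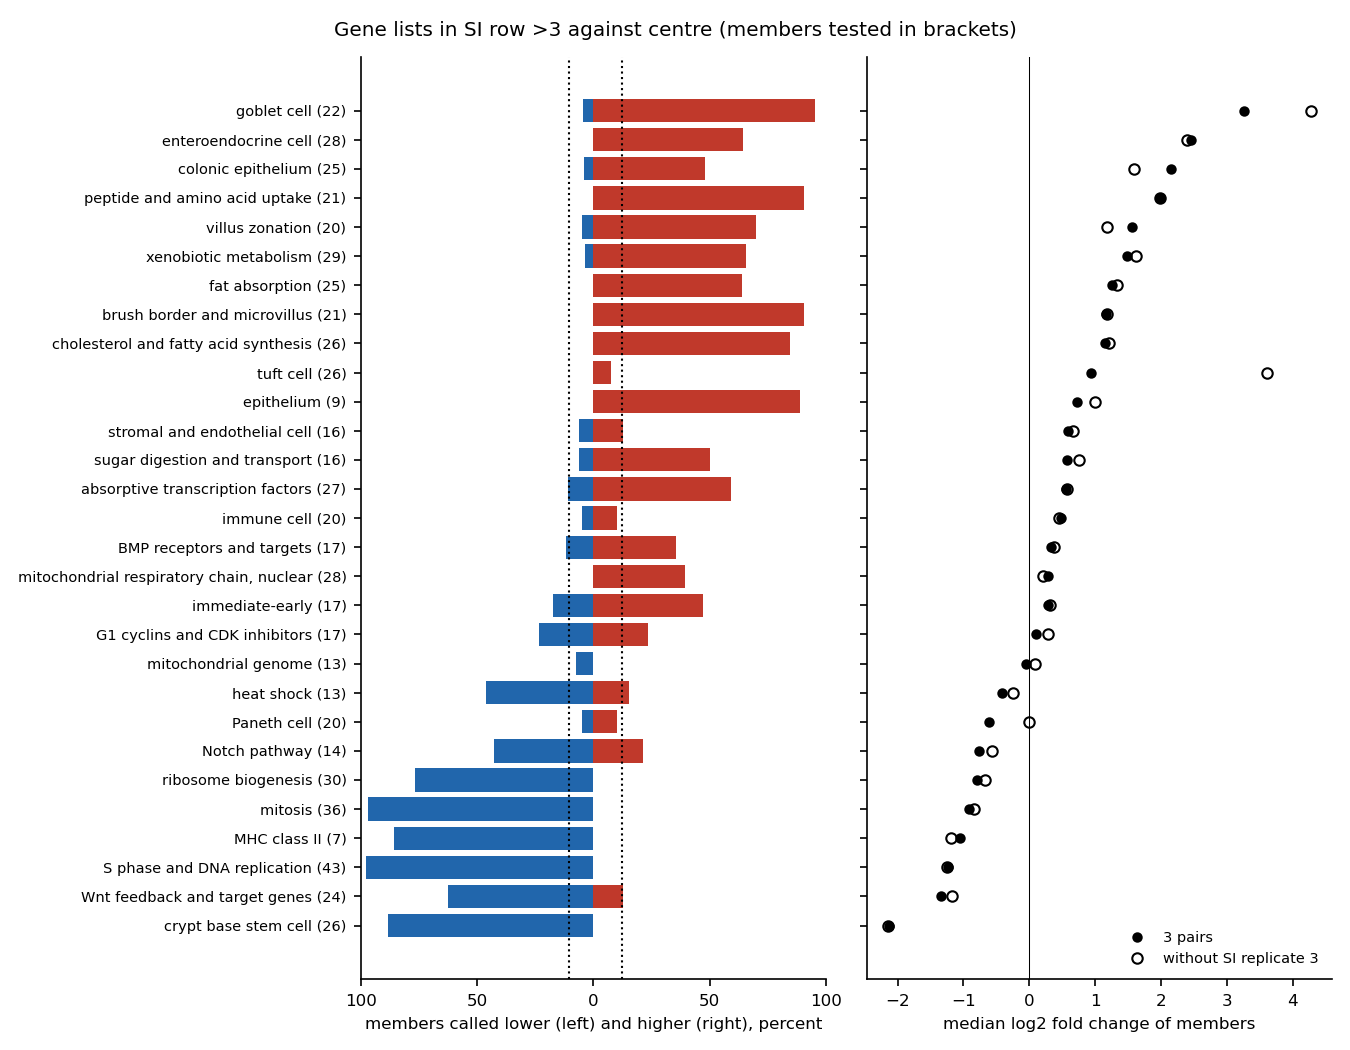
For each of 29 gene lists, the left panel gives the percent of members called higher (right, red) or lower (left, blue) in row >3, with dotted lines at the 12.4% and 10.5% of all genes, and the right panel the median log2 fold change with all 3 pairs (filled) and without SI replicate 3 (open). Only the tuft list moved by more than 2 on the log2 scale when SI replicate 3 was left out.

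Whether row >3 differs from centre by the same amount in the large intestine (LI) was tested in the same fit. The difference of both log2 fold changes passed for 620 of 26717 genes (2.32%), with the SI change above the LI change for 404 and below it for 216, and 616 of the 620 were also called in the SI. Without the replicate block no gene passed (1800 at an unadjusted p under 0.05, beside 3589 with it), and the count ran from 29 without SI replicate 1 to 1997 without SI replicate 3. Leaving out any 1 LI centre or row >3 library gave 110 to 434. Cdkn1a had 18.3, 12.9 and 11.6 CPM in LI centre and 41.4, 22.7 and 28.8 CPM in LI row >3, a smaller rise than in the SI by 2.51 on the log2 scale (SE 0.36, adjusted p = 0.0028). The sites overlapped in row >3, and the SI centre libraries were the lowest of all. Dpysl3, a cytoskeletal regulator, went from 2.71, 2.46 and 2.07 CPM to 33.0, 39.9 and 7.06 CPM in the SI and from 3.07, 1.38 and 2.65 CPM to 2.01, 0.665 and 1.68 CPM in the LI (difference 4.10, SE 0.58). Duox2, an oxidase of the apical membrane, had 132.7, 122 and 36.3 CPM against 349.8, 234 and 82.1 CPM in the SI and 33.1, 14.9 and 23.4 CPM against 32.6, 14.3 and 15.7 CPM in the LI (difference 1.40, SE 0.20). Its SI rise had an adjusted p of 0.323 without the replicate block. For Iqgap2 and B3gnt3 the differences were 1.39 and 1.30. On the other side stood Phgdh (-2.06, SE 0.25, adjusted p = 0.00167), with 15.7, 24.2 and 20.3 CPM in LI centre and 12.6, 16.2 and 11.5 CPM in LI row >3. Fyn, a kinase of the Src family, had 19.5, 20.8 and 10.4 CPM against 3.88, 6.41 and 4.50 CPM in the SI and 4.99, 6.02 and 9.62 CPM against 15, 9.75 and 13.3 CPM in the LI (difference -2.67, SE 0.36). The level of Fyn thus ran downwards in the SI and upwards in the LI in all 3 replicates. Flna, Cdca7 and Tubb5 had differences of -1.73, -1.46 and -0.98. Of the lists, brush border held 7 of 21 members past this test, S phase 13 of 43, crypt base 5 of 26, fat absorption 5 of 25, peptide uptake 4 of 21, ribosome biogenesis 4 of 30, goblet 2 of 22 and mitosis none of 36.

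**Figure D5:**
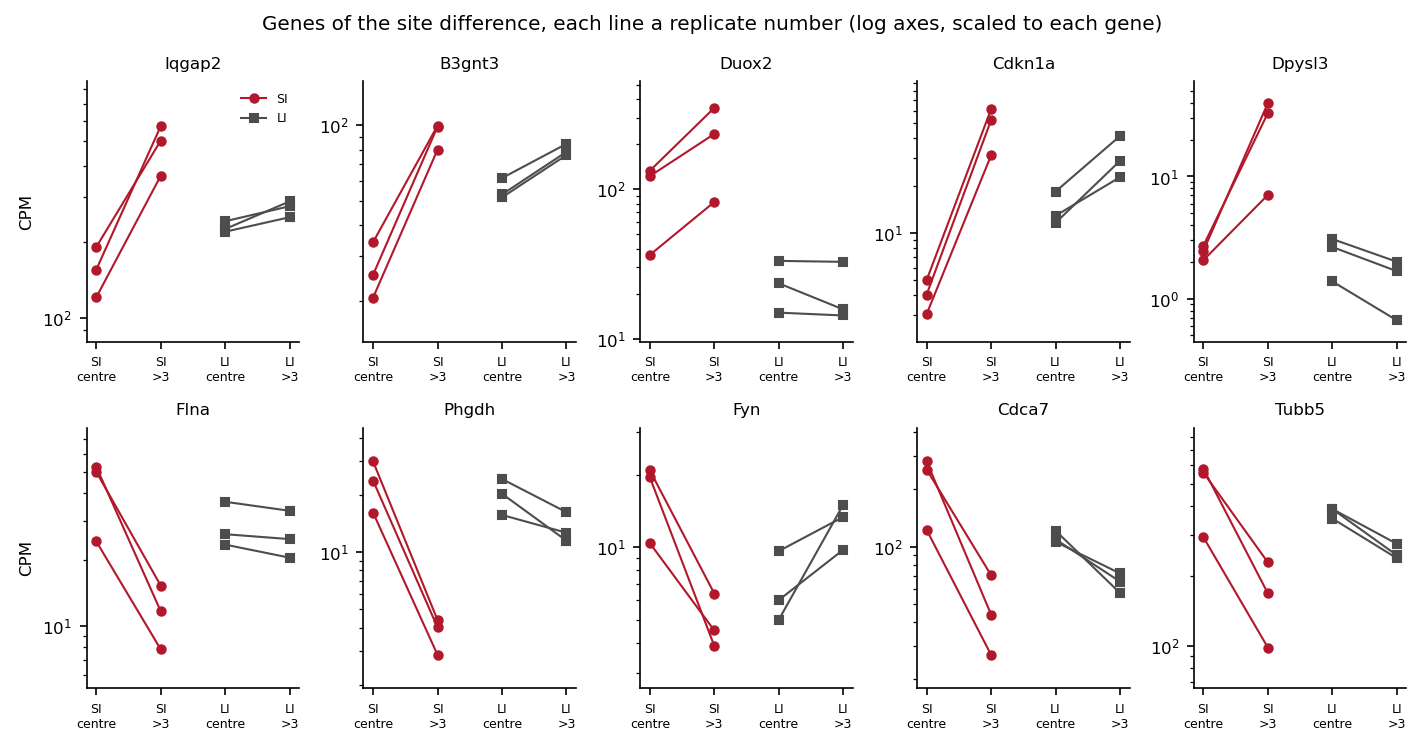
CPM (vertical, log axes scaled to each gene) of the 10 genes with the smallest adjusted p for the site difference, in centre and row >3 libraries of the SI (red) and the LI (grey), each line joining a replicate number. Those of Fyn rise and those of Dpysl3 fall in the LI in all 3 replicates, against a fall and a rise in the SI.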

How the data were processed

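Sorted cells gave stranded SMART-Seq libraries, read in pairs. The authors trimmed reads with Skewer, aligned them to mm10 with STAR and deposited raw counts per gene. A deposited table of normalised values was not used. Which annotation and which strand were counted is not given in the sources used. Counts of 43346 genes were analysed, and 42462 identifiers matched GENCODE release M21, which gave symbols and positions.

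The 18 libraries of 6 groups were fitted together with edgeR 4.0.16 in R 4.3.3 (TMM factors, mean count above 0, robust quasi-likelihood, 8 residual degrees of freedom), blocking on replicate within each site. Calls needed a Benjamini-Hochberg adjusted p under 0.05. CPM are counts per 1e6 of TMM-scaled totals. SE is the log2 fold change divided by the root of F. Equal replicate numbers were taken as pairs by the rule. As a check, deviations from the group means were correlated between centre and row >3 across 15998 genes. They gave 0.241, 0.391 and 0.421 for the same number, and between -0.369 and 0.149 otherwise. Deviations of a group cancel, so positive values for equal numbers go with lower ones elsewhere. Between replicates 1 and 2 the unmatched values were 0.149 and 0.120, so the check is weak for that pairing.

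Members and lists were chosen with earlier results of these data known. Named were, per direction, up to 12 genes with the smallest adjusted p, an absolute log2 fold change of at least 1, the same sign in 3 pairs and no overlap, then up to 4 genes per list, a set of defining genes and up to 5 genes per direction of the site difference. Genes without a proper symbol were not named. The fit was also run on simulated data, whose outcome is not reported here. Alternatives were no block, DESeq2 1.42.0, RLE factors, library size only, filterByExpr, no filter, the legacy fit, a log2 fold change tested against 1, fewer groups, and libraries left out. Figures were drawn with matplotlib. A few genes that the naming rule took are not reported here.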

Additional observations from a re-analysis of the deposited data

Results flagged for a closer look

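The change from centre to row >3 differed between SI and LI for 620 genes by the test of the difference itself. Among the genes named for it, the SI change exceeded the LI change on the log2 scale by 1.39 for Iqgap2, 1.30 for B3gnt3, 1.40 for Duox2, 2.51 for Cdkn1a and 4.10 for Dpysl3. It lay below the LI change by a difference of -1.73 for Flna, -2.06 for Phgdh, -2.67 for Fyn, -1.46 for Cdca7 and -0.98 for Tubb5. None of these 10 passed without the replicate block, and all 10 passed without SI replicate 3.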

How the results depend on the processing

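Without the replicate block, 3518 genes were called in SI row >3 against centre (1964 higher, 1554 lower), 3498 of them also called with it, and none in the site difference. A log2 fold change tested against 1 left 1023 genes, 664 higher and 359 lower. The site difference gave 1461 genes with DESeq2, 981 with filterByExpr and 1014 with the legacy fit. With libraries left out, singly or by replicate number, calls ranged from 3904 to 6201 in all, from 2221 to 3428 higher and from 1683 to 2773 lower, and from 29 to 1997 in the site difference. The lowest of these came without SI replicate 1, and the highest without SI replicate 3. The lower calls also fell to 1806 without row >3 replicate 1 alone. The unfiltered fit is the same as the fit reported, since a mean count above 0 and a count in at least 1 library select the same genes. Leaving out any 1 LI centre or row >3 library moved the site difference to between 110 and 434 genes. LI border libraries were not left out. Leaving out SI low replicate 1 or SI high replicate 1 alone moved it to 65 or 62. Among the genes named in the text, directions reversed for 4 that did not pass. With library size only, Cdx2 was at -0.0283 and mt-Co1 at -0.0727. With libraries left out, mt-Nd3 ranged from -0.0209 to 0.442 and mt-Co1 from -0.101 to 0.343, both lowest without row >3 replicate 1, and Dclk1 from -0.19 without SI replicate 2 to 4 without SI replicate 3, where it passed. Of 19 alternatives, 10 ended the call of Wnt3, 8 those of H2-DMa and Ccnd1, 7 that of Cd79a and 6 that of Hnf4a. The calls of Egf, Pdgfrb, H2-Aa, Atoh1, Muc2, Plcb2 and Kit each ended in 5. Calls were lost without centre replicate 1 (Egf, Wnt3, H2-DMa, Cd79a, Vim, Pdgfrb, Ccnd1), 2 (Wnt3) or 3 (Hnf4a, Ccnd1), without row >3 replicate 1 (Wnt3, Cd79a, Pdgfrb), 2 (Wnt3, H2-DMa) or 3 (Egf, Ccnd1), and without SI replicate 1 (Egf, Wnt3, H2-DMa, Cd79a, Pdgfrb) or 2 (Wnt3, H2-DMa, Cd79a, Atoh1), beside those given with the results. Wnt3, Nts, H2-Aa, H2-DMa and Apoa1 lost the call with DESeq2. With the legacy fit, Wnt3, Nts, Ciita, H2-Aa, H2-DMa, Itgam and Vim lost it. With the SI centre and row >3 libraries alone, H2-Eb1, Ciita, H2-Aa, Itgam, Cd79a, Olfm4, Hnf4a, Atoh1 and Ccnd1 lost it. Scaling by library size alone gave 5 lower immediate-early genes and 2 lower genes each of fat absorption, sugar and villus zonation. DESeq2 gave 4 higher tuft genes, 1 lower gene of fat absorption, 1 higher of ribosome biogenesis and no lower Paneth or stromal gene. The cause was not tested. Depth and 3 libraries a group limit genes under about 1 CPM.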
